A study of Rattus norvegicus with 35 samples.

Results

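Members of the miR-466 family were measured in the livers of rats given ketoconazole, an azole antifungal drug. The family rows described here are miR-466b-5p, miR-466b-4-3p, miR-466b-2-3p and miR-466c-5p, 4 of the 763 rows of the miRNA count table. The rows of miR-466b-2-3p and of miR-466b-4-3p held the same count in every column, so they were counted as 1 and 3 distinct members remained, all of which passed the filter on low counts. The members were chosen from results of these same data, because they were lower in the livers of rats given the high or the middle dose than in controls. Their values in those comparisons are therefore given as a description with no test, and tests of the members are given only for comparisons that were not used to choose them.

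The animals were male Sprague-Dawley rats aged 6 weeks that were dosed orally for 3, 7 or 14 days. The low dose was 10 mg/kg/day of ketoconazole, the middle dose 30 mg/kg/day and the high dose 100 mg/kg/day, and control rats received the vehicle, 0.5% methylcellulose. Livers were taken 24 h after the last dose, and small RNA from each was sequenced as 1 library. Each of the 12 groups of dose and day had 3 libraries, except the control of day 14, which had 2, so 35 libraries were analysed. The labels number the libraries of a group without saying that each came from a separate rat, and p-values measure only the spread between these libraries.

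A miRNA is a short RNA cut from a hairpin precursor. The 5p product comes from the 5′ arm of the hairpin and the 3p product from the 3′ arm. The seed, the stretch near the 5′ end, guides the miRNA to messenger RNAs, which are then repressed. In rodents the miR-466 hairpins belong to a large group of similar miRNAs inside an intron of Sfmbt2, an imprinted gene that encodes a Polycomb protein, and the group is best known for its expression in the placenta. Whole liver holds several cell types, so less of a miRNA per cell and fewer cells that make it cannot be told apart in these data.

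The mature sequences are shown because products of the same arm resemble each other, which bears on how their reads can be separated. They are RefSeq sequences of the assembly GRCr8, minus strand, written 5′ to 3′ with the seed, bases 2 to 8, in capitals. A mature sequence was matched for 3 of the 4 named members, and miR-466b-4-3p is given by name only. The last 2 lines are the 3p products of the same hairpin family that were not among the members.
miR-466b-5p: uAUGUGUGuguguauguccaug
miR-466c-5p: uGUGAUGUguguauguacaug
miR-466b-2-3p: aUAUACAUacacacauacaca
miR-466b-3p: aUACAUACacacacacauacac
miR-466c-3p: uAUACAUGcacacauacacac

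The 5p products were runs of alternating U and G, and the 3p products were runs of alternating A and C. In miR-466b-5p, 17 of 22 bases were G or U, and in miR-466c-5p, 16 of 21. In miR-466b-2-3p, 17 of 21 bases were A or C. The seeds nevertheless all differed. At bases 2 to 8, none of the 3 member seeds was shared by another of the 693 mature miRNA names of the RefSeq table. At other positions the same bases did recur within the family. The seed bases of miR-466b-5p also lay inside miR-466c-5p, and those of miR-466b-2-3p began miR-466c-3p.

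Products of the same arm were close to each other, also across parts of the seed. miR-466b-5p and miR-466c-5p shared an unbroken run of 11 bases, uguguguaugu, and had 15 of 21 bases in common in their best overlap. The 3p products were closer still. miR-466b-2-3p matched miR-466c-3p at 19 of 20 bases and miR-466b-3p at 18 of 20 bases. How the authors assigned reads that fit more than 1 of these sequences is not given in the sources used here, so the split of counts among the rows is uncertain. The motif UGUGUGUG was present in 4 of the 693 names (0.577%) and CACACACA in 1 (0.144%), searched in the mature strand only. All 4 RefSeq loci of the family, Mir466b-1, Mir466b-2, Mir466c and Mir466d, lay within the annotated span of Sfmbt2. miR-466b-5p was listed for both Mir466b-1 and Mir466b-2, so its row cannot be assigned to 1 hairpin.

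Library totals ranged from 2665943 to 9665416 counts (median 3758063), and 328 miRNAs were tested. The first principal component of the tested miRNAs other than the miR-466 rows held 46% of the variance. It separated the controls and the low dose of days 3 and 14 (14 libraries, -14.24 to -4.25) from the low dose of day 7 and all middle and high dose libraries (21 libraries, 4.28 to 6.47). Control day 7 replicates 2 and 3 stood apart from the other controls, at -14.24 and -13.19. The main results of day 7 are also given without them. That leaves 1 control library on day 7, so only the size of the day 7 differences is then given, with no call. The hepatocyte markers miR-122-5p, miR-122-3p, miR-192-5p and miR-194-5p were all detected. Their summed level lay between 192282 and 284871 CPM (counts scaled to a common sequencing depth, with TMM-scaled library totals) in controls and between 174934 and 237043 in the high dose libraries, and 4 of 4 were lower at the high dose over the 3 days (edgeR's quasi-likelihood test, Benjamini-Hochberg adjusted p under 0.05). The endothelial markers miR-126a-3p and miR-126a-5p summed to between 28706 and 37855 in controls and between 18909 and 22701 at the high dose, with 2 of 2 lower. Their sum was 24377 to 34819 at the low dose and 20376 to 25148 at the middle dose. Of the white blood cell markers, 3 of 7 were lower and 1 higher, with summed levels of 1710 to 3467 in controls and 2047 to 3224 at the high dose. Of the stellate and smooth muscle markers, 2 of 5 were lower and 2 higher, with sums of 36371 to 49719 in controls and 45882 to 60490 at the high dose. Of the red blood cell markers, 1 of 4 was lower and 1 higher, with sums of 1521 to 4148 and 2262 to 4623. Beside these calls, 103 of all 328 tested miRNAs (31.4%) were lower and 103 were higher in the same comparison. Of the skeletal and heart muscle markers, 1 of 2 tested was higher. The 1 brain marker tested was higher, and the 1 pancreas marker tested was neither higher nor lower. The part of the marker shifts in the results on miR-466 was not tested.

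miR-466c-5p was the most abundant member and was lower at the middle and high doses on every day. TMM scaling corrects the library sizes for differences in composition. Its mean over all libraries was 93.6 CPM, rank 133 of the 328 tested miRNAs, from 132 to 626 counts per library. In controls the level was 148, 119 and 122 CPM on day 3, 136, 204 and 155 on day 7, and 105 and 101 on day 14. At the high dose it was 87.3, 68.0 and 82.5 CPM on day 3, 57.9, 64.7 and 71.3 on day 7, and 57.0, 55.1 and 53.4 on day 14. At the middle dose it was 101, 50.4 and 78.4 CPM on day 3, 80.5, 82.3 and 56.5 on day 7, and 58.6, 59.2 and 55.6 on day 14. On each day every middle and high dose library was below every control. These contrasts chose the members. The share of all tested miRNAs without such overlap is not given, here or for the rows below. At the low dose miR-466c-5p was at 140, 116 and 139 CPM on day 3, 70.4, 75.4 and 119 on day 7, and 108, 93.4 and 108 on day 14. The low dose libraries of day 7 were all below the controls of that day, whereas those of days 3 and 14 overlapped the controls.

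The order of the group means of miR-466c-5p ran from control day 7 (165 ± 34.8 CPM, SD, n = 3) through low dose day 3 (131 ± 13.5, n = 3) and control day 3 (129.6 ± 16.4, n = 3) down to high dose day 14 (55.2 ± 1.80, n = 3). Low dose day 7 stood sixth with 88.2 ± 26.6 CPM (SD, n = 3). It was the first group below the controls and the other low dose groups. Of the 11 steps between neighbours in this order, 3 were larger than the larger of both SDs: control day 3 to low dose day 14, high dose day 7 to middle dose day 14, and middle dose day 14 to high dose day 14.

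miR-466b-5p was about 6 times less abundant than miR-466c-5p and varied more between libraries. Its mean was 16.2 CPM, rank 223 of 328, from 15 to 136 counts per library, and its biological coefficient of variation in the fit was 26.5% against 17.2% for miR-466c-5p. In controls it measured 24.7, 20.0 and 21.0 CPM on day 3, 22.6, 35.6 and 26.6 on day 7, and 16.4 and 16.3 on day 14. The high dose libraries measured 15.8, 16.2 and 17.9 CPM on day 3, 10.8, 11.7 and 15.5 on day 7, and 12.4, 12.0 and 10.1 on day 14. The middle dose libraries measured 13.8, 7.12 and 13.9 CPM on day 3, 11.4, 10.8 and 8.79 on day 7, and 14.4, 10.7 and 9.35 on day 14. Within each day the controls and the middle or high dose libraries did not overlap, but the high dose of day 3 reached above the controls of day 14.

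The low dose libraries of miR-466b-5p were the most scattered. They measured 30.4, 16.5 and 25.2 CPM on day 3, 3.84, 18.1 and 23.02 on day 7, and 10.9, 16.8 and 16.9 on day 14. The lowest value of the whole set, low dose day 7 replicate 1, rested on 15 counts (exact Poisson 95% interval 8.40 to 24.7 counts, which covers counting error only). The same library was also the lowest in its group for miR-466c-5p (70.4 CPM), miR-466b-3p (4.35) and miR-466c-3p (4.61), but not for miR-466b-2-3p. In the order of group means of miR-466b-5p, from control day 7 (28.3 ± 6.65 CPM, SD, n = 3) to middle dose day 7 (10.35 ± 1.38, n = 3), 1 of 11 steps was larger than the larger SD, that from control day 3 (21.9 ± 2.51, n = 3) to high dose day 3 (16.6 ± 1.10, n = 3).

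The 3p product miR-466b-2-3p was likewise lower at the middle and high doses on every day. Its mean was 12.4 CPM, from 16 to 90 counts per library, with a biological coefficient of variation of 14.4%. In controls it measured 21.1, 20.0 and 14.3 CPM on day 3, 15.1, 20.9 and 17.7 on day 7, and 16.7 and 14.9 on day 14. Levels at the high dose were 9.32, 9.45 and 10.6 CPM on day 3, 7.98, 7.92 and 9.74 on day 7, and 11.8, 8.71 and 6.47 on day 14. Levels at the middle dose were 9.495, 8.76 and 6.76 CPM on day 3, 10.3, 9.03 and 11.8 on day 7, and 10.2, 10.4 and 10.1 on day 14. All 18 middle and high dose libraries were below all 8 controls, whatever the day, in the contrasts that chose the members. At the low dose it measured 15.9, 14.2 and 17.0 CPM on day 3, 11.002, 10.1 and 15.9 on day 7, and 13.6, 10.1 and 16.4 on day 14. The group means fell into 3 control groups at the top (18.5 ± 3.66 to 15.8 ± 1.26 CPM, SD, n = 3 and n = 2), the low dose groups of days 3, 14 and 7 in turn (15.7 ± 1.42, 13.4 ± 3.12 and 12.3 ± 3.14, n = 3 each), and the middle and high dose groups at 8.34 to 10.4. No step between neighbours in this order exceeded the larger SD.

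**Figure D1:**
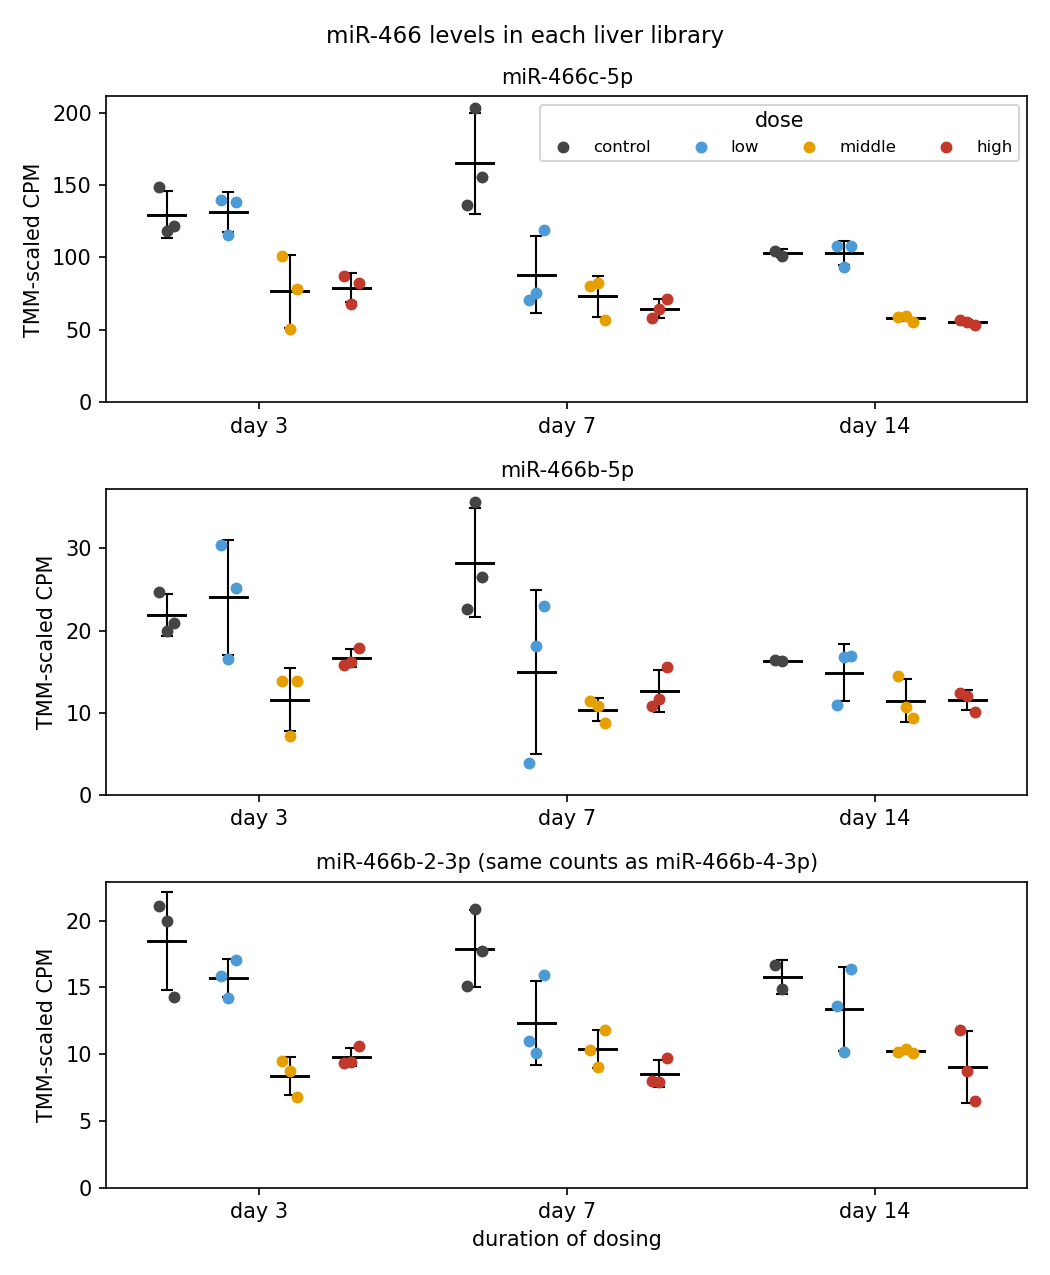
Level of the 3 distinct miR-466 members in each library, in TMM-scaled CPM on the vertical axis, by duration of dosing and dose; points are libraries, long bars group means and whiskers SD (n = 3, control day 14 n = 2). Middle and high dose libraries lay below the controls of their day in each panel, and the low dose did so for miR-466c-5p on day 7.

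The members were lower at the middle and high doses, with log2 values from -0.40 to -1.44 on single days. Log2 fold changes are relative to the control of the same day, ± SE from edgeR. miR-466c-5p measured -0.71 ± 0.20, -1.35 ± 0.21 and -0.90 ± 0.23 at the high dose on days 3, 7 and 14, and -0.76 ± 0.20, -1.17 ± 0.21 and -0.83 ± 0.22 at the middle dose. miR-466b-2-3p measured -0.91 ± 0.22, -1.06 ± 0.22 and -0.78 ± 0.25 at the high dose, and -1.14 ± 0.22, -0.77 ± 0.22 and -0.62 ± 0.24 at the middle dose. miR-466b-5p measured -0.40 ± 0.33, -1.16 ± 0.34 and -0.50 ± 0.39 at the high dose, and -0.92 ± 0.34, -1.44 ± 0.35 and -0.54 ± 0.38 at the middle dose. The 5p products were thus farthest below control on day 7, the day on which the controls of both were highest, and miR-466b-2-3p had no such common day.

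Averaged over the 3 days, the high dose value was -0.99 ± 0.12 for miR-466c-5p, -0.92 ± 0.13 for miR-466b-2-3p and -0.69 ± 0.20 for miR-466b-5p. At the middle dose these were -0.92 ± 0.12, -0.84 ± 0.13 and -0.97 ± 0.21. The median of the 3 members was -0.92 at the high dose and -0.92 at the middle dose, beside medians of -0.04 and -0.02 over all 328 miRNAs. Without control day 7 replicates 2 and 3 the day 7 values at the high dose were -1.11 for miR-466c-5p, -0.85 for miR-466b-2-3p and -0.88 for miR-466b-5p. At the middle dose they were -1.01, -0.65 and -1.24. The averages over days were then -0.95, -0.89 and -0.64 at the high dose and -0.93, -0.87 and -0.97 at the middle dose, in the same order.

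By the same adjusted threshold of 0.05 that was applied to all miRNAs, 2 of 3 members were lower at the high dose on day 3, 3 of 3 on day 7 and 2 of 3 on day 14, where 16.2%, 27.7% and 13.4% of all tested miRNAs were lower. At the middle dose the counts were 3, 3 and 2 of 3, with 18%, 23.8% and 10.1% of all tested miRNAs lower. Over the average of days all 3 were lower at both doses, with 31.4% lower at the high dose and 29.9% at the middle dose. miR-466b-5p was the member outside the count on day 3 at the high dose and on day 14 at both doses. Since these contrasts chose the members, nothing is read from the counts. The high and middle dose comparisons share the control libraries of each day.

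**Figure D2:**
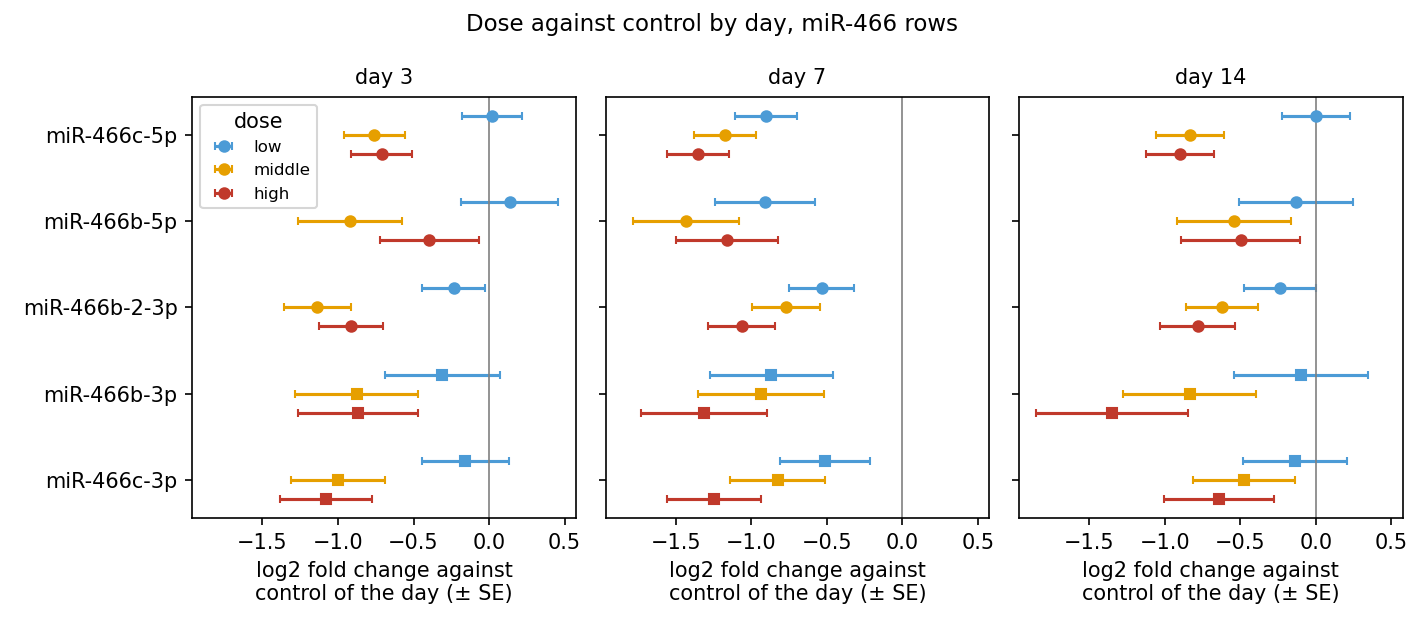
Log2 fold change of each dose against the control of the same day on the horizontal axis, with the SE from edgeR as whiskers, for the 3 members (circles) and the 3p relatives miR-466b-3p and miR-466c-3p (squares). On day 7 the low dose values lay between -0.51 and -0.91, farther below 0 than the low dose values of the same rows on days 3 and 14.

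The low dose was not used to choose the members, and there the members passed the test on day 7 and on neither of the other days. On day 7 miR-466c-5p fell by 0.90 ± 0.20 on the log2 scale (SE, adjusted p = 0.000408), miR-466b-5p fell by 0.91 ± 0.33 (adjusted p = 0.0256) and miR-466b-2-3p fell by 0.54 ± 0.22 (adjusted p = 0.0425) (all from edgeR's quasi-likelihood test, Benjamini-Hochberg adjusted over all miRNAs). So 3 of 3 members passed on a day when 45.1% of all tested miRNAs passed in either direction, 87 higher and 61 lower. The median of the members was -0.90, beside 0.02 over all miRNAs. The low dose comparison of day 7 uses the same control libraries as the high and middle dose comparisons that chose the members, so it is not independent of them.

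The strength of the day 7 result differed between the members. The fall of miR-466c-5p passed the threshold with any 1 library of either group left out (-0.76 to -1.18). Without control day 7 replicates 2 and 3 together, which leaves 1 control, its value was -0.77. miR-466b-5p no longer passed without low dose day 7 replicate 1 (-0.46), the library with 15 counts, or without control day 7 replicate 2 (-0.86). Its value without control day 7 replicates 2 and 3 together was -0.75. miR-466b-2-3p no longer passed without low dose day 7 replicate 1 (-0.46) or replicate 2 (-0.40), or without control day 7 replicate 2 (-0.54). Its value without control day 7 replicates 2 and 3 together was -0.44. Of all 328 tested miRNAs, 148 passed at the low dose on day 7.

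On day 3 the low dose values were 0.02 ± 0.20 for miR-466c-5p, 0.14 ± 0.32 for miR-466b-5p and -0.23 ± 0.21 for miR-466b-2-3p (edgeR, adjusted p = 0.995, 0.985 and 0.9). On day 14 they were 0.00 for miR-466c-5p, -0.13 for miR-466b-5p and -0.24 for miR-466b-2-3p (edgeR, adjusted p = 0.999 for each). No miRNA of the 328 passed on either day (0% each) with edgeR or with DESeq2, and 25 on day 3 and 11 on day 14 had a p under 0.05 before adjustment (edgeR).

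Whether the low dose differed between days was tested directly, in a comparison added with the results known. For miR-466c-5p the change at the low dose was lower on day 7 than on day 3 by a log2 difference of -0.92 ± 0.28 (edgeR, adjusted p = 0.0121) and lower than on day 14 by -0.90 ± 0.31 (edgeR, adjusted p = 0.0229). Among all miRNAs 32.3% and 33.2% passed in these tests of the difference. For miR-466b-5p the differences were -1.05 ± 0.46 and -0.78 (edgeR, adjusted p = 0.0841 and 0.266), and for miR-466b-2-3p both were -0.30 (edgeR, adjusted p = 0.448 and 0.53). Without control day 7 replicates 2 and 3, which leaves 1 control library on day 7, the differences of miR-466c-5p were -0.70 and -0.78. Those of miR-466b-5p were then -0.79 and -0.63, and those of miR-466b-2-3p -0.12 and -0.21. The difference of miR-466c-5p between days 7 and 14 no longer passed without low dose day 7 replicate 1 (-0.77) or low dose day 7 replicate 2 (-0.80). Without control day 14 replicate 2, which leaves 1 control library on day 14, it was -0.91.

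A comparison within the low dose, which holds no control library, gave smaller values. Day 7 set against days 3 and 14 together measured -0.40 ± 0.18 for miR-466c-5p, -0.34 ± 0.30 for miR-466b-5p and -0.24 ± 0.19 for miR-466b-2-3p (edgeR, adjusted p = 0.0817, 0.439 and 0.383). Thus 0 of 3 members passed where 30.2% of all miRNAs did. The value of miR-466b-5p was 0.11 without low dose day 7 replicate 1. miR-466c-5p passed in this comparison when low dose day 3 replicate 2, low dose day 7 replicate 3 or any 1 library of low dose day 14 was left out, and miR-466b-2-3p when low dose day 14 replicate 2 was left out (-0.48). miR-466c-5p also passed with DESeq2's size factors (-0.55), with library sizes alone (-0.50), without the filter (-0.50) and in the DESeq2 test (-0.55).

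Doses of ketoconazole were compared with each other in 3 contrasts, high against middle over the average of days and high or middle against low on day 7, and no member passed in them. Other pairs of doses were not tested. Over the average of days the high dose differed from the middle dose by -0.07 ± 0.12 for miR-466c-5p, -0.08 ± 0.13 for miR-466b-2-3p and 0.28 ± 0.21 for miR-466b-5p (edgeR, adjusted p = 0.717, 0.717 and 0.362), with 17.4% of all miRNAs passing. With SEs of this size, a small difference between the doses could go undetected. In the high against low comparison given next, even values of more than 2 SEs did not pass after adjustment. On day 7 the high dose differed from the low dose by -0.45 ± 0.20, -0.53 ± 0.22 and -0.25 ± 0.34 for the same members in that order (edgeR, adjusted p = 0.104, 0.0833 and 0.607), with 24.1% passing. The middle dose differed from the low dose on that day by -0.27, -0.24 and -0.52 ± 0.36 (edgeR, adjusted p = 0.406, 0.504 and 0.348), with 10.1% passing. All 6 day 7 values were below 0, and none passed. miR-466b-5p passed in the last comparison without low dose day 7 replicate 1 (-0.98).

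Within the control, high and middle doses, day 7 and day 14 were each compared with day 3, and no member passed. Day 14 was not tested against day 7. In controls, day 7 differed from day 3 by 0.35 for miR-466c-5p, 0.36 for miR-466b-5p and -0.05 for miR-466b-2-3p (edgeR, adjusted p = 0.312, 0.553 and 0.949), with 1.52% of all miRNAs passing. Without control day 7 replicates 2 and 3 these values were 0.09, 0.07 and -0.28. Control day 14 differed from day 3 by -0.33, -0.42 and -0.23 in that order (edgeR, adjusted p = 0.637, 0.708 and 0.737), with 0% passing in edgeR and DESeq2 and 29 miRNAs with a p under 0.05 before adjustment (edgeR). By their means over all control libraries the 5p products were highest on day 7 and lowest on day 14, a difference that was not tested.

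At the high dose, day 7 differed from day 3 by -0.30 for miR-466c-5p, -0.41 for miR-466b-5p and -0.20 for miR-466b-2-3p, with 0% of miRNAs passing in edgeR and DESeq2 and 13 with a p under 0.05 before adjustment (edgeR). High dose day 14 differed from day 3 by -0.52 ± 0.21 for miR-466c-5p (edgeR, adjusted p = 0.137), -0.52 for miR-466b-5p and -0.10 for miR-466b-2-3p, with 0.915% passing. With library sizes in place of TMM scaling the value of miR-466c-5p was -0.78 and passed. At the middle dose the day 7 differences were -0.07, -0.16 and 0.31 for the same members, with 0% passing in edgeR and DESeq2 and 22 with a p under 0.05 before adjustment (edgeR). The middle dose day 14 differences were -0.41 (edgeR, adjusted p = 0.425), -0.04 and 0.29, with 4.27% passing.

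The 3p relatives miR-466b-3p and miR-466c-3p, which are separate rows and were not among the members, were also lower at both higher doses. miR-466b-3p averaged 5.95 CPM and miR-466c-3p 6.71 CPM, from 4 to 48 and from 9 to 54 counts per library. In controls miR-466b-3p measured 11.6, 8.44 and 7.62 CPM on day 3, 7.78, 15.5 and 6.28 on day 7, and 6.55 and 8.14 on day 14. At the high dose it measured 4.92, 2.7 and 7.52 CPM on day 3, 4.39, 2.20 and 5.18 on day 7, and 2.26, 3.32 and 3.24 on day 14. Controls and high dose libraries of the same day did not overlap. In controls miR-466c-3p measured 12.1, 11.3 and 5.95 CPM on day 3, 7.55, 15.5 and 9.14 on day 7, and 7.74 and 7.21 on day 14. At the high dose it measured 4.66, 3.60 and 5.64 CPM on day 3, 3.19, 5.06 and 5.18 on day 7, and 5.92, 3.73 and 4.45 on day 14, again without overlap within a day. At the middle dose miR-466b-3p measured 6.24, 4.65 and 4.06 CPM on day 3, 3.81, 3.61 and 7.78 on day 7, and 1.31, 5.33 and 4.80 on day 14, and it overlapped the controls on day 7. For miR-466c-3p the middle dose libraries ranged from 3.83 to 6.64 CPM, without overlap within a day. In both rows control day 7 replicate 2 was the highest library.

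Averaged over days, miR-466b-3p fell by 1.18 ± 0.25 on the log2 scale at the high dose and fell by 0.88 ± 0.24 at the middle dose (edgeR, adjusted p = 0.00017 and 0.00241). miR-466c-3p fell by 0.99 ± 0.19 and fell by 0.77 ± 0.19 (edgeR, adjusted p = 3.82e-05 and 0.00065). In these averages 31.4% of all tested miRNAs were lower at the high dose and 29.9% at the middle dose. The 4 averages passed under every alternative tried, with values from -1.32 to -0.69. On single days the calls were less stable. At the high dose 1, 2 and 1 of the 2 relatives passed on days 3, 7 and 14, where 16.2%, 27.7% and 13.4% of all tested miRNAs were lower. The middle dose counts were 1, 1 and 0, where 18%, 23.8% and 10.1% were lower. The high dose call of miR-466b-3p on day 7 was lost without control day 7 replicate 2 (-0.80), as was the middle dose call of miR-466c-3p (-0.50). Without control day 7 replicates 2 and 3, which leaves 1 control library, the high dose values of day 7 were -1.03 for miR-466b-3p and -0.79 for miR-466c-3p. The middle dose value of miR-466c-3p was then -0.46. At the low dose on day 7 the relatives measured -0.87 and -0.51 (edgeR, adjusted p = 0.0818 and 0.17), and without those 2 controls -0.70 and -0.18. Because these sequences match miR-466b-2-3p at nearly all bases, the rows may share reads and are not independent of it. The high and middle dose contrasts also chose the members, so the p-values of the relatives there are no separate support for the members.

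The rest of the family had few or no counts. miR-466d had 2 counts in all, in 2 libraries, and miR-297 and miR-568, which were looked for as related names, had 0 counts in all 35 libraries. Among other miRNAs with the UGUGUGUG motif, miR-32-3p (mean 1.60 CPM) and miR-672-5p (1.83 CPM) were above the filter. Their averages at the high dose were -0.25 ± 0.32 and -0.45 ± 0.39 (edgeR, adjusted p = 0.506 and 0.324), and neither passed at the middle dose average. On single days miR-672-5p fell by 1.59 ± 0.60 at the high dose on day 7 (edgeR, adjusted p = 0.0268), where 27.7% of all tested miRNAs were lower. This row held 248 counts over all 35 libraries, and its value without control day 7 replicates 2 and 3 is not given. At the low dose on day 7 it measured -1.06 ± 0.57 (edgeR, adjusted p = 0.14). miR-32-3p passed on no day at any dose.

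The balance of products within a library needs no scaling, because both counts come from the same library. The ratio of miR-466c-5p to miR-466b-5p counts was 5.72 to 6.40 in the 8 controls (mean 5.99 ± 0.22 SD). In the 9 high dose libraries it was 4.19 to 5.55 (mean 4.92 ± 0.51 SD), so all 9 were below the lowest control. The middle dose ratios spanned both, at 4.07 to 7.60 (mean 6.30 ± 1.11 SD, n = 9), with 3 of 9 below the lowest control. The low dose ratios ranged from 4.18 to 18.3, with 5 of 9 libraries below the lowest control, and the highest value belonged to low dose day 7 replicate 1, where miR-466b-5p had 15 counts. The difference in this ratio between doses was not tested. Counts of miR-466b-5p were 55 to 102 in the controls and 25 to 76 at the high dose, so counting error alone moves each ratio. For the lowest control count, 55, the exact Poisson 95% interval was 41.4 to 71.6. The narrow range of the controls is therefore an uncertain bound. The share of other pairs of miRNAs with such a separation is not given.

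The ratio of miR-466b-5p to miR-466b-2-3p is not that of the arms of 1 hairpin, since the 5p row belongs to more than 1 locus. It ranged from 0.349 to 2.05 over the 35 libraries, and the doses overlapped. Its mean was 1.30 ± 0.27 (SD, n = 8) in controls, 1.29 ± 0.51 at the low dose, 1.19 ± 0.41 at the middle dose and 1.501 ± 0.22 at the high dose (n = 9 each). The ratio of miR-466c-5p to miR-466c-3p was 14.9 ± 3.32 (SD, n = 8) in controls and 14.8 ± 3.22 (n = 9) at the high dose. Its full range was 8.37 to 20.4. The 5p arm of miR-466c thus gave more counts than the 3p arm in every library, and both arms were lower at the high dose in similar proportion. The ratio of miR-466b-2-3p to miR-466b-3p ranged from 1.35 to 7.75 and also overlapped between doses.

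**Figure D3:**
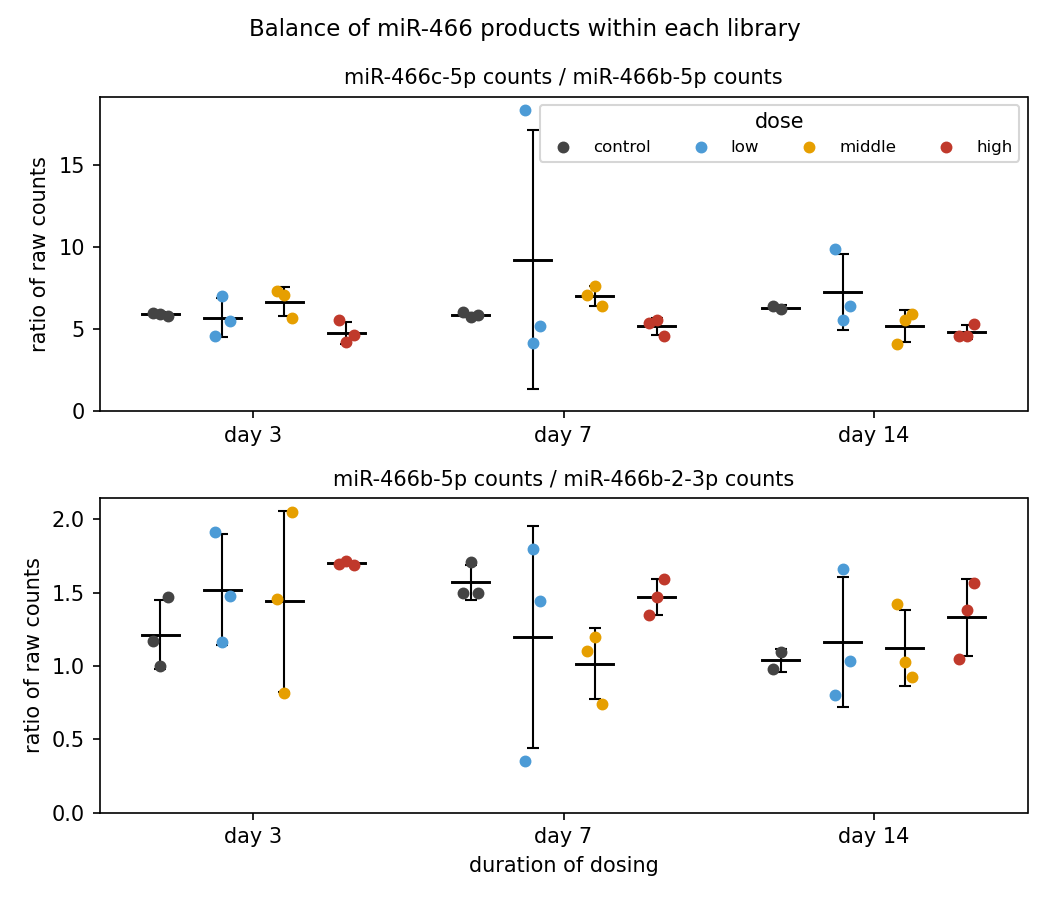
Ratio of raw counts of miR-466 products within each library on the vertical axis, miR-466c-5p over miR-466b-5p above and miR-466b-5p over miR-466b-2-3p below, by duration of dosing and dose; points are libraries, long bars group means and whiskers SD. The high dose ratios in the upper panel (4.19 to 5.55) lay below all controls (5.72 to 6.40), and the point at 18.3 is low dose day 7 replicate 1. The counting error of the ratios is not shown, and their difference between doses was not tested.

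The levels of the members were set beside the main division of the libraries. Among the 14 libraries on the negative side of the first principal component, miR-466c-5p ranged from 93.4 to 204 CPM, and among the 21 on the positive side from 50.4 to 119, with 19 of those 21 below the lowest of the 14. For miR-466b-2-3p the ranges were 10.1 to 21.1 and 6.47 to 15.9 CPM, with 13 of 21 below. For miR-466b-5p they were 10.9 to 35.6 and 3.84 to 23.02 CPM, with 8 of 21 below. The split places the low dose of day 7 with the middle and high doses. The component was computed without the miR-466 rows but from the same libraries, and the split follows dose except at low dose day 7, so the comparison is a description. Most of the 21 libraries are the middle and high dose libraries whose fall against control chose the members. A difference between the sides therefore follows from that choice. The share of all tested miRNAs with such a difference is not given here.

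**Figure D4:**
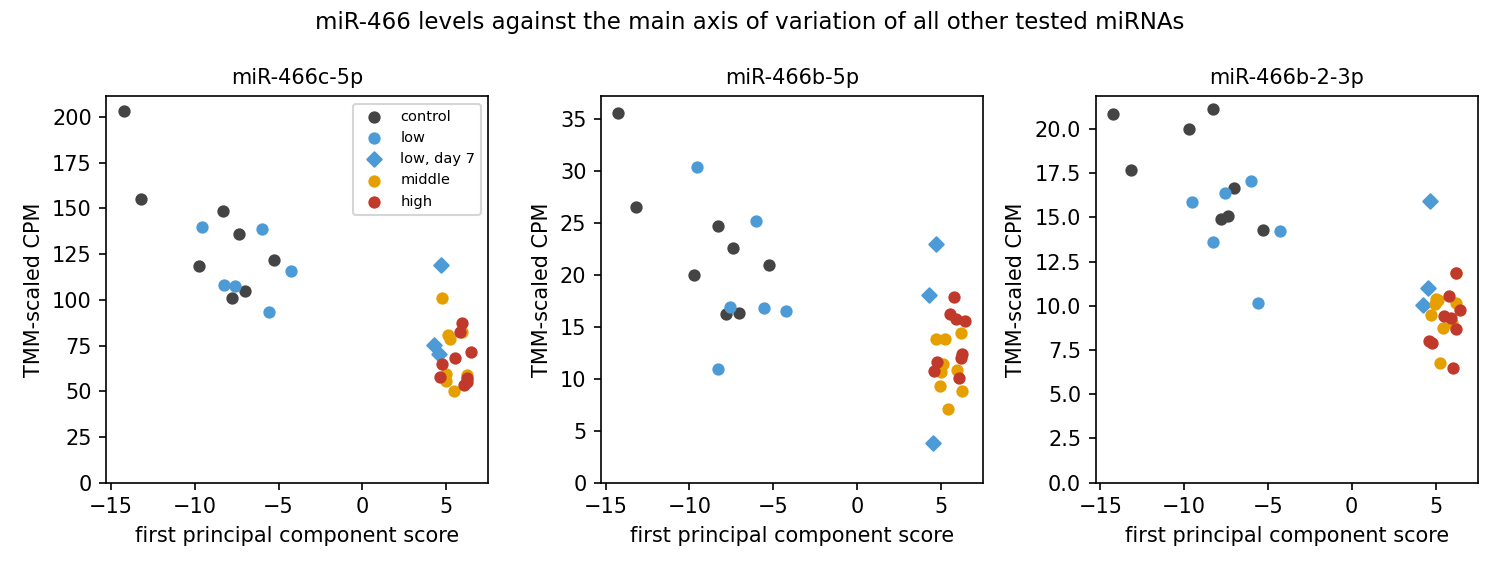
Level of each member in TMM-scaled CPM on the vertical axis against the score of each library on the first principal component of all other tested miRNAs on the horizontal axis; points are the 35 libraries, coloured by dose, with low dose day 7 as diamonds. Low dose day 7 lies at scores above 0 with the middle and high dose libraries, and 1 of its 3 libraries reaches 119 CPM for miR-466c-5p and 23.02 for miR-466b-5p.

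Across the 12 group means of log2 CPM the members tracked each other, with a Pearson r of 0.902 between miR-466b-5p and miR-466c-5p, 0.912 between miR-466c-5p and miR-466b-2-3p, and 0.827 between miR-466b-5p and miR-466b-2-3p. Over the 35 single libraries r was lower for the same pairs, at 0.791, 0.82 and 0.638 in that order. The points share libraries and scaling, and the members were chosen for a common fall, so these are descriptions. The tested miRNAs with the most similar pattern to miR-466c-5p were miR-466b-3p (r = 0.971), miR-674-5p (0.957), miR-16-5p (0.939), miR-144-3p (0.933) and miR-542-5p (0.929). Those most like miR-466b-2-3p were miR-466c-3p (0.964), miR-24-3p (0.956), miR-425-5p (0.929), miR-214-3p (0.927) and miR-32-5p (0.926). Those most like miR-466b-5p were miR-15b-5p (0.937), miR-25-3p (0.935), miR-93-5p (0.889), miR-18a-5p (0.875) and miR-674-5p (0.873). A 3p relative of the family led the list of both miR-466c-5p and miR-466b-2-3p, and miR-674-5p was on the lists of both 5p members.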

How the data were processed

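The values are raw read counts per mature miRNA as the authors deposited them, not normalized. The build was rn6, per the submitters' processing notes. Which aligner, counter and miRNA annotation were used is not given in the sources used here. Kits were RNeasy Plus Universal Mini for RNA and TruSeq Small RNA for libraries, per the labels' protocols. The 37 count columns were assigned to 35 libraries by name, and 2 libraries with 2 runs each (middle dose day 14 replicates 2 and 3) were summed.

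Of 763 rows, 151 were at 0 in all libraries, and filterByExpr by group (minimum count 10, minimum total 15) kept 328, among them both copies of the doubled miR-466b-2-3p row. edgeR 4.0.16 (R 4.3.3) fitted TMM-scaled counts with 1 mean per group (23 residual degrees of freedom), robust quasi-likelihood F-tests and Benjamini-Hochberg adjustment within each comparison. The threshold was an adjusted p of 0.05. SEs were computed as |log2 fold change| over the square root of F. In all, 8 comparisons were described and 15 tested. The members and lists were chosen with earlier results of these data known. Neighbours are the 5 highest Pearson correlations over group means of log2 CPM (prior count 2). The script was tested on simulated data. Alternatives were DESeq2 1.42.0, other scalings, no filter, a replicate block and leaving out libraries.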

Additional observations from a re-analysis of the deposited data

Results flagged for a closer look

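The effect of the low dose on miR-466c-5p differed between days by a test of the difference itself. It was lower on day 7 than on day 3 by a log2 difference of -0.92 (edgeR's quasi-likelihood test, Benjamini-Hochberg adjusted p = 0.0121) and lower than on day 14 by -0.90 (edgeR, adjusted p = 0.0229). In the same tests 106 and 109 of the 328 miRNAs passed. The 3 low dose libraries of day 7 measured 70.4, 75.4 and 119 CPM, below the day 7 controls at 136, 204 and 155. Without control day 7 replicates 2 and 3, which leaves 1 control library on day 7, the differences were -0.70 and -0.78. The difference between days 7 and 14 no longer passed without low dose day 7 replicate 1 (-0.77) or low dose day 7 replicate 2 (-0.80). Without control day 14 replicate 2, which leaves 1 control library on day 14, it was -0.91.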

How the results depend on the processing

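Alternatives were compared for direction and, in the tested comparisons, for the threshold of 0.05. For the members at the high and middle doses against control the threshold was not applied. There a value counted as the same if its sign held and its shift was smaller than the SD within groups, and otherwise as moved. By these rules 861 values of the 3 members stayed the same, 25 changed sign and 2 moved. In the tested comparisons 13 no longer passed and 14 newly passed. The values that no longer passed include fits that left 1 control library in a group, where lost power cannot be told from the library's effect. The cause was not tested. For low dose day 7 against its other days, miR-466c-5p passed with DESeq2's size factors (-0.55), library sizes (-0.50), no filter (-0.50) and the DESeq2 test (-0.55). With library sizes its high against middle dose value was 0.00 and its high dose day 14 against day 3 value -0.78. Without the filter its low dose values on days 3 and 14 were -0.05 and -0.03, and the day 7 fall of miR-466b-2-3p (-0.55) no longer passed. Without control day 7 replicates 2 and 3, low dose day 7 gave -0.75 for miR-466b-5p and -0.44 for miR-466b-2-3p, and the low dose differences between days for miR-466c-5p were -0.70 and -0.78. Group means of control day 14 moved to 17.0 CPM for miR-466b-5p and 107 for miR-466c-5p with DESeq2's size factors. With library sizes, miR-466b-5p moved to 16.7 in control day 14 and 17.8 in high dose day 3, miR-466c-5p to 50.7 in middle and 49.4 in high dose day 14, and miR-466b-2-3p to 8.95 in middle dose day 14 and 10.5 in high dose day 3.

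Counts of miRNAs passing moved as follows. Control day 7 against day 3, with 5, had 3 with DESeq2's size factors, 1 without the filter and 15 with DESeq2. High dose day 14 against day 3, with 3, had 33 with library sizes, 1 without the filter and 23 with DESeq2. Without the filter, high against low dose on day 7 had 45 in place of 79, and middle against low dose 20 in place of 33. Without control day 7 replicates 2 and 3, the day 7 counts were 68 in place of 170 at the high dose, 72 in place of 167 at the middle dose and 64 in place of 148 at the low dose, and the low dose differences between days had 40 and 42 in place of 106 and 109.

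Leaving out 1 library at a time gave these ranges of counts: 1 to 62 in control day 7 and 0 to 1 in control day 14 against day 3, 49 to 67 for high and 13 to 41 for middle against low dose on day 7, 1 to 3 in high dose day 14, 8 to 18 in middle dose day 14 and 0 to 1 in middle dose day 7 against day 3, and 0 to 2 for the low dose on day 3. For miR-466b-2-3p the values ranged from -0.25 to 0.05 in control day 7 and from -0.43 to 0.09 in high dose day 14 against day 3, from -1.13 to -0.58 for the high dose on day 14, from -0.76 to -0.40 for the low dose on day 7 and from -0.48 to -0.11 for low dose day 7 against its other days. For miR-466b-5p they ranged from -0.71 to 0.18 for high and -0.98 to -0.09 for middle against low dose on day 7, -0.07 to 0.36, -1.34 to -0.46 and -0.23 to 0.05 for the low dose on days 3, 7 and 14, -0.77 to 0.11 for low dose day 7 against its other days, -1.48 to -0.59 for the low dose difference between days 7 and 3, and -0.45 to 0.01 and -0.25 to 0.14 for middle dose days 7 and 14 against day 3. For miR-466c-5p they ranged from -0.15 to 0.04 for high against middle dose, -0.07 to 0.13 and -0.03 to 0.07 for the low dose on days 3 and 14, -0.67 to -0.26 for low dose day 7 against its other days, -1.18 to -0.77 for the low dose difference between days 7 and 14, -0.41 to 0.02 for middle against low dose on day 7, -0.34 to 0.20 for middle dose day 7 against day 3 and -1.04 to -0.55 for the middle dose on day 3. For the low dose, miR-466b-3p ranged from -0.44 to 0.19 on day 14, and miR-466c-3p from -0.42 to 0.02 on day 3 and -0.24 to 0.01 on day 14. The low dose difference of miR-466c-5p between days 7 and 14 no longer passed without low dose day 7 replicate 1 or replicate 2. That of miR-466b-5p between days 7 and 3 passed without low dose day 3 replicate 2 or low dose day 7 replicate 3.

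Replicate numbers did not pair the libraries: over 51 same-numbered pairs the correlations of deviations ran from -0.302 to 0.213, and 9 of 35 libraries correlated best with their own number. With the number as a replicate block, the low dose value of miR-466c-5p on day 7 was -0.90 and 149 miRNAs passed in place of 148. The call of miR-466b-3p at the high dose on day 14 was lost under the block (-1.41). Depth limits the family: miR-466b-5p and miR-466b-2-3p rested on 15 and 16 counts in their lowest libraries.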
